A study of Homo sapiens with 13 samples.

Results

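The clustered protocadherins are the cadherin-like cell surface proteins encoded in the alpha, beta and gamma gene clusters on the long arm of chromosome 5. Their transcripts were measured in HuT78, an established T cell line grown out from a patient with Sézary syndrome, in which cutaneous T cell lymphoma spreads to the blood. Members were the protein-coding genes of the count table whose symbols match the cluster names, 53 of 45744 genes: 15 alpha, 16 beta and 22 gamma genes. Genes were matched by symbol and not by level, but the clusters were chosen with earlier results of these data known. After 72 h there were 4 libraries of cells given 10 nM chaetocin, 3 of cells given 10 nM F5446, 4 of cells given 1 µM romidepsin and 2 of cells given DMSO, the vehicle. Chaetocin, made by a fungus, inhibits histone H3 lysine 9 methyltransferases of the SUV39H1 type. F5446, known by its code name, acts against SUV39H1, and romidepsin inhibits histone deacetylases. The titles name F5446 for all 3 of its libraries, but the treatment labels of replicates 3 and 4 give code names that end in other digits, so which compound those libraries received rests on the titles. All groups share 1 cell line, and the labels do not say whether replicates were separate cultures, so p-values measure the spread between these samples only.

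In neurons each cell switches on a few members of each cluster, and the resulting mix of proteins lets its processes tell self from non-self. Every alpha or gamma gene has its own promoter and its own large first exon for the extracellular, membrane and proximal cytoplasmic parts, spliced to constant exons shared by its whole cluster, whereas beta genes lack such constant exons. A promoter is chosen when CTCF and cohesin join it to a distant enhancer, through a promoter element with the core CGCT that most members carry. Silent promoters are held by DNA methylation and by histone H3 lysine 9 methylation laid down by SETDB1. The comparisons ask whether inhibitors of histone H3 lysine 9 methylation or of deacetylation raised the clusters in a lymphoid line.

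Because each member is switched on from its own promoter, the promoters of members at the ends of the range measured here are shown first. The RefSeq promoter table (build GRCh38.p14) held 47 of the 53 members; PCDHA3, PCDHA13, PCDHB6, PCDHB11, PCDHGA12 and PCDHGC5 had no entry. Each line below gives 100 bases on the plus strand, 5′ to 3′, ending at the base before the RefSeq start, except for PCDHGB2, whose stretch begins 250 bases before it. Capitals mark CGCT. The first 3 are the alpha genes with the most counts in all, which were still near 0. The next 3 are beta genes and the last 4 are gamma genes that the comparisons turn on.
PCDHA10 (chr5:140855797-140855896): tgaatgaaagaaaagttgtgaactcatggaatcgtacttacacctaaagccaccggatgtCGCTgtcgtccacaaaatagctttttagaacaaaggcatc
PCDHA11 (chr5:140868857-140868956): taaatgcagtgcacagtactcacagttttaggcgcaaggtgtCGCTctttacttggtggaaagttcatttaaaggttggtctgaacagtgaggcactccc
PCDHA9 (chr5:140848282-140848381): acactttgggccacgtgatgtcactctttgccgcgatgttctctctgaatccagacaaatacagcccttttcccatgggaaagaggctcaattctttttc
PCDHB4 (chr5:141121718-141121817): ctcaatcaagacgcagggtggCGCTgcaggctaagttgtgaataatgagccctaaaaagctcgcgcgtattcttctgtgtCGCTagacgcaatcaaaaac
PCDHB14 (chr5:141223243-141223342): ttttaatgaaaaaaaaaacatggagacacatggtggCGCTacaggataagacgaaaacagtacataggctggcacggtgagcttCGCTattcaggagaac
PCDHB12 (chr5:141208619-141208718): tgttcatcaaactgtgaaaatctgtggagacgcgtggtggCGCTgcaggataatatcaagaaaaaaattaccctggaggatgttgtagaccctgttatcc
PCDHGB2 (chr5:141359886-141359985): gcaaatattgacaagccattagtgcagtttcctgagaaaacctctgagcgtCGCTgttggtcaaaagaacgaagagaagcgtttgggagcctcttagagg
PCDHGA5 (chr5:141364062-141364161): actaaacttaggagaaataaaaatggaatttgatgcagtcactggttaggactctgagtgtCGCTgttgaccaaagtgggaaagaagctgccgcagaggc
PCDHGA10 (chr5:141412887-141412986): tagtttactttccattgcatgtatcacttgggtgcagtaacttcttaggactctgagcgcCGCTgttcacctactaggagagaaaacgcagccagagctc
PCDHGA11 (chr5:141420951-141421050): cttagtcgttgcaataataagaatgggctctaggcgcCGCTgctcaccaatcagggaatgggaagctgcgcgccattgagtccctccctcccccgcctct

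CGCT on the gene's strand lay within the 100 bases before the start in 44 of these 47 promoters (93.6%), against 9866 of all 35116 promoters in the table (28.1%). On either strand the counts were 44 (93.6%) and 15723 (44.8%). Where there was 1 copy it began between 95 and 11 bases before the start (positions -95 to -11, median -54 in 33 promoters). The 3 without it in that window were PCDHA9, PCDHB8, and PCDHGB2, whose copy began at position -199. The share was 92.3% in alpha, 92.9% in beta and 95% in gamma, so alpha genes near 0 and gamma genes with counts carried it alike. CpG dinucleotides in the 300-base window had medians of 7 in alpha, 7.5 in beta and 7 in gamma, against 14 over all promoters. Among the C-type genes there were 27 in PCDHAC1, 15 in PCDHAC2, 18 in PCDHGC3 and 23 in PCDHGC4, and the B-type genes PCDHGB6, PCDHGB5 and PCDHGB4 had 16, 14 and 13.

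HuT78 cells held transcripts of the gamma cluster and of part of the beta cluster, and almost none of the alpha cluster. Over all 13 libraries the members took 14272 counts, between 0.00377% and 0.006% of a library. Gamma genes took 77.6% of these, beta genes 22.1% and alpha genes 0.266%. To compare members, levels were divided by the length of exon that no other member has in GENCODE 29 (2352 to 3427 bases in alpha, 2740 to 8210 in beta, 2397 to 2597 in gamma). Alpha genes also have 2866 bases and gamma genes 2181 bases of exon in common with their cluster. How reads in these constant exons were counted is not given in the sources used here. In DMSO the median level per kilobase was 0 CPM in alpha, 0.0685 in beta and 0.473 in gamma.

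Along the chromosome the level did not fall off evenly. Within gamma, PCDHGA1, PCDHGA2 and PCDHGA3 at the upstream end had 0.119, 0.119 and 0 CPM per kilobase in DMSO. The highest values lay between PCDHGB1 and PCDHGA10, led by PCDHGB2 at 3.26, PCDHGA5 at 2.47 and PCDHGB5 at 1.8 CPM per kilobase. Low values lay in the same stretch, with PCDHGB4 at 0.131 and PCDHGA8 at 0.317. PCDHGB2 was above PCDHGA5 in both DMSO libraries, while PCDHGA5 and PCDHGB5 overlapped. The C-type genes at the downstream end, which in neurons are expressed without the random choice, had 0.047 (PCDHGC3), 0.0196 (PCDHGC4) and 0 (PCDHGC5). In beta the highest was PCDHB4 at 0.566, close to PCDHB12 at 0.555, and in alpha it was PCDHA12 at 0.0613. By subtype, the 12 A-type gamma genes took 35.9% of all member counts, the 7 B-type genes 40.8% and the 3 C-type genes 0.925%.

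**Figure D1:**
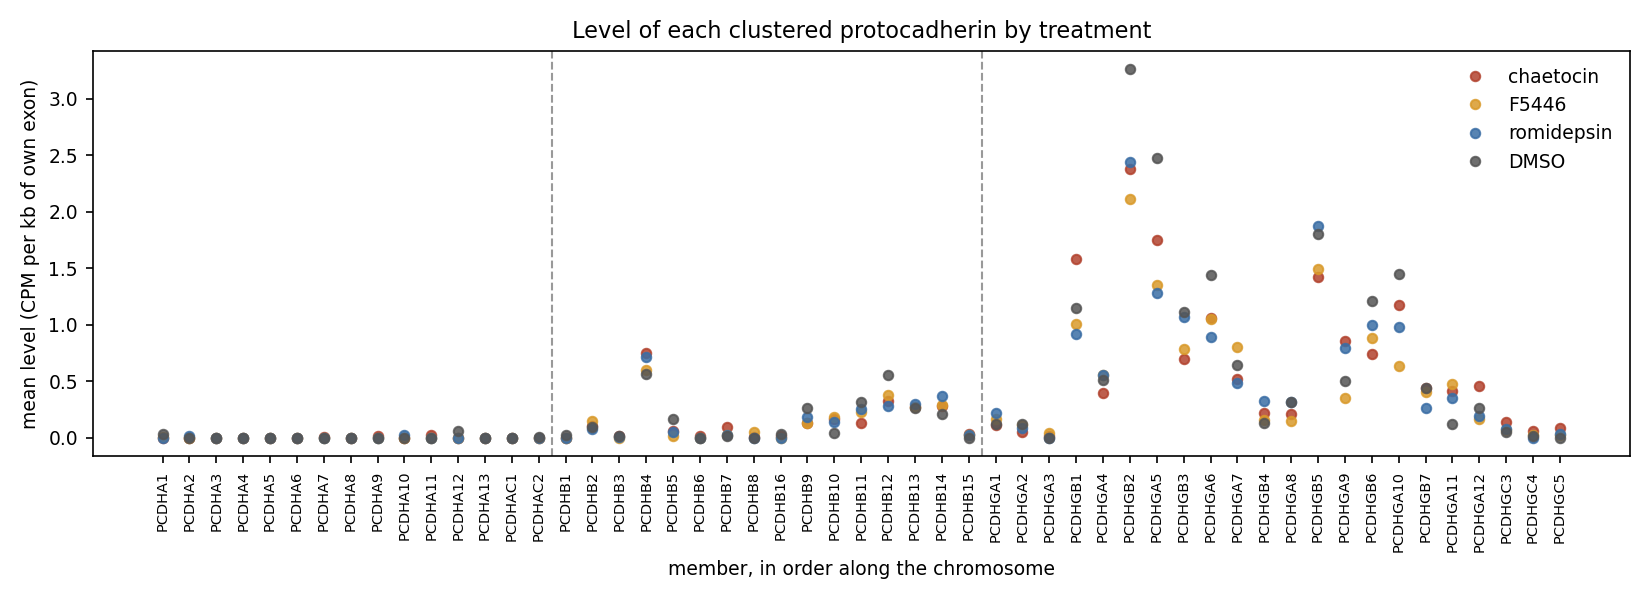
Mean level of each member with chaetocin, F5446, romidepsin and DMSO, in CPM per kilobase of exon that no other member has (y axis), for the 53 members in chromosomal order (x axis); dashed lines part the alpha, beta and gamma clusters. Alpha genes lie at or near 0 in all groups, and PCDHGB2 has the highest mean in every group, 3.26 in DMSO.

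Library totals ran from 19901052 to 30816188 counts, and 17252 genes had enough counts to be tested. Chaetocin replicate 3 stood apart on the first principal component (112.7, others -36.7 to 18.7), with 15.9% of its counts in mitochondrially encoded genes against 5.22 to 12.7% in the others. That component also parted replicate numbers 1 and 2 (negative) from 3 and 4 (positive), and each of these sets holds 1 DMSO library. As a check of the label, 20 T cell and Sézary line markers were summed. The sums were 2400 to 4220 CPM with chaetocin, 2920 to 3490 with F5446, 2540 to 3480 with romidepsin, and 2670 to 2900 with DMSO. CD3E was at 176 to 267 CPM, TRAC at 125 to 320 and GATA3 at 520 to 1690. Other genes of this list were low. CD7, often lost in Sézary cells, was at 0 to 0.557 and PLS3 at 0 to 0.907. CD5 was at 1.34 to 4.44, CCR4 at 1.1 to 13.1 and CD2 at 4.78 to 11.7. The 14 neuron markers summed to 66.4 to 82.9 CPM with chaetocin, 65.7 to 70.9 with F5446, 89.3 to 95.4 with romidepsin, and 61.4 to 80.1 with DMSO. All romidepsin libraries thus lay above all others. The 6 tested neuron markers all had a log2 fold change above 0 with romidepsin (median 0.72, against 51.0% of all genes above 0), with 0 called by edgeR. This was not particular to neuron markers. Above 0 with romidepsin were also 3 of 3 tested other lymphoid and myeloid markers (median 0.79) and 5 of 6 epithelial (0.37). So were 4 of 5 fibroblast (0.17) and 16 of 20 T cell and Sézary line markers (0.13). Most of the neuron marker sum was NEFH and DCX, while NEFM and ELAVL4 were at 0 and STMN2 had 1 count in all. Markers of other cells were also present in part. The 12 fibroblast markers summed to 127 to 173, 111 to 158, 92.2 to 149, and 104 to 151 CPM in the same order of groups, led by THY1 (59.7 to 123), COL1A1 (14.3 to 32) and PDGFRB (10.7 to 33.3), with FAP and POSTN at 0. The 8 epithelial markers summed to 105 to 119, 118 to 122, 124 to 168, and 107 to 139 CPM, led by KRT8 (48.2 to 80.5), with EPCAM at 15.6 to 25.2 and KRT19 at 0. The 8 other lymphoid and myeloid markers summed to 38.9 to 86.2, 48.8 to 77, 51.9 to 81.3, and 45.9 to 56.7 CPM, led by CD79A (26.3 to 78), with none at 0 in all libraries. The part of these markers in the protocadherin levels was not tested. In bulk RNA, fewer expressing cells and less RNA per cell cannot be told apart.

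Summed over each cluster, no treatment had a mean above that of DMSO. The alpha sum was 0, 9, 0 and 7 counts in chaetocin replicates 1 to 4, 0, 1 and 0 in F5446 replicates 2 to 4, 0, 0, 8 and 3 in romidepsin replicates 1 to 4, and 3 and 7 in DMSO replicates 1 and 4. All libraries below are given in this order. No treated library exceeded DMSO replicate 4 in CPM (0.281 at most, against 0.338). A count of 0 has a 95% counting interval that reaches up to 3.69 counts. In the libraries with an alpha sum of 0, a level of 3 counts was 0.101 to 0.15 CPM. Pooled over libraries, the ratio of treated to DMSO counts at equal depth was 0.66 with chaetocin (95% counting interval 0.282 to 1.63), 0.054 with F5446 (0.00124 to 0.38, from 1 count) and 0.483 with romidepsin (0.186 to 1.27). On mean CPM the log2 ratios were -0.8, -4.29 and -1.27 for chaetocin, F5446 and romidepsin, and single libraries moved them. Leaving out DMSO replicate 4 gave -0.05, -3.55 and -0.53. Leaving out chaetocin replicate 2 moved the chaetocin ratio to -1.41, and leaving out romidepsin replicate 3 moved the romidepsin ratio to -2.38. Counting intervals leave out the spread between libraries, and reads without molecular identifiers are not independent molecules.

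The beta sum was 8.43, 10.8, 11.6 and 8.43 CPM with chaetocin, 11.3, 8.82 and 9.05 with F5446, 10.1, 10.2, 10.7 and 9.42 with romidepsin, and 11 and 10.4 with DMSO. Every treated group overlapped DMSO. Means were 9.8 ± 1.61 CPM with chaetocin (SD, n = 4), 9.72 ± 1.36 with F5446 (SD, n = 3), 10.1 ± 0.529 with romidepsin (SD, n = 4), against 10.7 ± 0.447 with DMSO (SD, n = 2). The log2 ratios to DMSO were -0.13, -0.14 and -0.08 in that order of treatments. Within replicate numbers 1 and 2 they were -0.2, 0.03 and -0.12, and within 3 and 4 they were -0.05, -0.22 and -0.05.

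The gamma sum was 35.2, 44.6, 34.9 and 30 CPM with chaetocin, 31.4, 28.3 and 34.7 with F5446, 33.9, 40, 29 and 35.9 with romidepsin, and 36.4 and 47.6 with DMSO. The 3 F5446 libraries all lay below both DMSO libraries, and the chaetocin and romidepsin groups overlapped DMSO. Means were 36.2 ± 6.08 CPM with chaetocin (SD, n = 4), 31.5 ± 3.23 with F5446 (SD, n = 3), 34.7 ± 4.57 with romidepsin (SD, n = 4), against 42 ± 7.93 with DMSO (SD, n = 2). The log2 ratios to DMSO were -0.21, -0.42 and -0.28 for chaetocin, F5446 and romidepsin. They rest on DMSO replicate 4, which was the highest of all libraries. Without it the ratios were -0.01, -0.21 and -0.07, and without DMSO replicate 1 they were -0.4, -0.6 and -0.46. Within replicate numbers 1 and 2 they were 0.13, -0.21 and 0.02, and within 3 and 4 they were -0.55, -0.6 and -0.55. Without chaetocin replicate 3 the chaetocin ratio was -0.2. The 3 C-type genes, a small part of the gamma sum, had a higher mean in each treatment. They summed to 0.692 ± 0.874 CPM with chaetocin, 0.288 ± 0.138 with F5446 and 0.291 ± 0.54 with romidepsin (SD). With DMSO this was 0.168 ± 0.237. Each group overlapped DMSO, and chaetocin replicate 2 (63 counts) and romidepsin replicate 2 (22 counts) were the highest. A-type and B-type sums had means below DMSO in each treatment. No test was made of these sums, since the members were chosen with earlier results known.

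**Figure D2:**
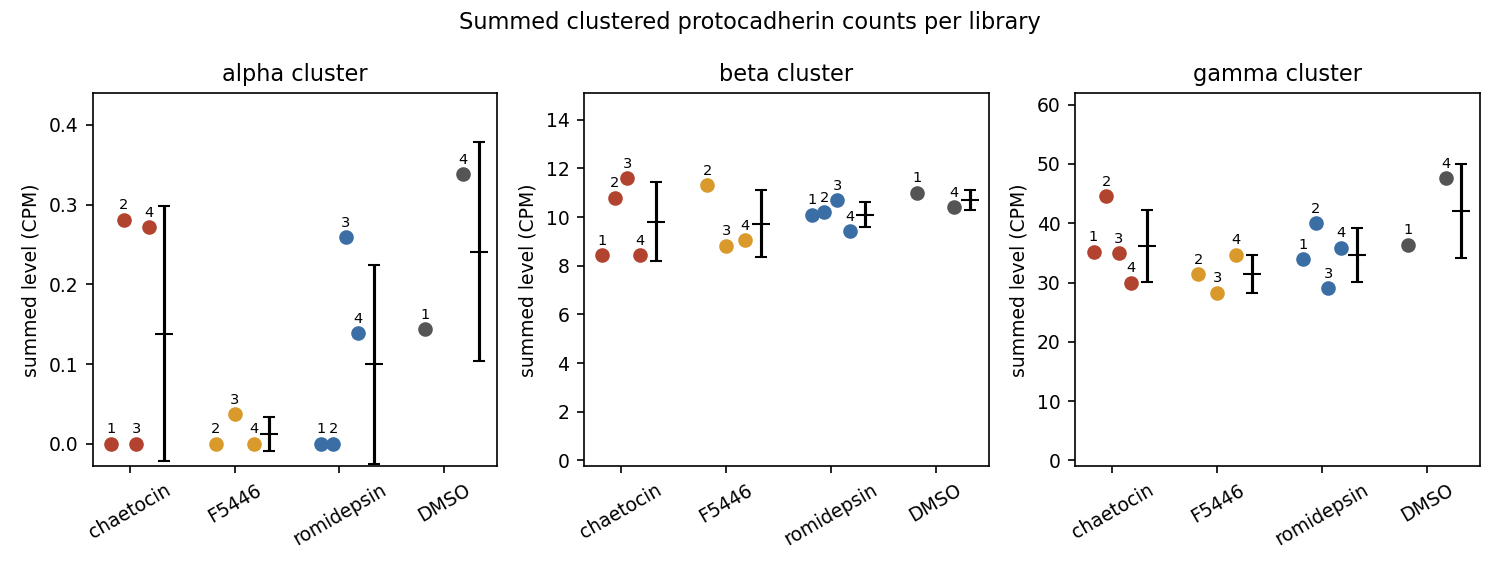
Summed level of the alpha, beta and gamma clusters in CPM (y axis; each panel has its own scale) for each library by treatment (x axis); points carry the replicate number, and the dash with its bar is the group mean ± SD. Chaetocin and romidepsin libraries overlap DMSO in all 3 clusters, and the 3 F5446 gamma sums, 28.3 to 34.7 CPM, lie below the DMSO values of 36.4 and 47.6.

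The alpha cluster holds PCDHA1 to PCDHA13 and the C-type genes PCDHAC1 and PCDHAC2. Its 15 genes had 38 counts in all 13 libraries, and none had enough to be tested. Counts came from 8 genes, and the other 7 (PCDHA3, PCDHA4, PCDHA5, PCDHA6, PCDHA8, PCDHA13 and PCDHAC1) had none. No library held counts of more than 2 of them. PCDHA10 had 8 counts, all in romidepsin replicate 3 (0.259 CPM), and none in the DMSO libraries. PCDHA11 had 7 counts, all in chaetocin replicate 4 (0.272 CPM), and PCDHA9 had 7, all in chaetocin replicate 2 (0.219 CPM). PCDHA12 had its 6 counts in DMSO replicate 4, so isolated counts arose with and without treatment. PCDHA1 had 1 count with F5446 and 3 with DMSO. PCDHA2 had 3 counts in romidepsin replicate 4, PCDHA7 had 2 in chaetocin replicate 2, and PCDHAC2, which in mice serotonergic axons need for their spacing, had 1 in DMSO replicate 4. Counts confined to 1 library were common at this depth. Of 3202 genes of the table with 4 to 8 counts in all, 70.7% had them all in 1 library.

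The beta genes are single-exon genes whose proteins lack the constant cytoplasmic part of the other clusters. All 16 had counts, and 10 had enough to be tested. Many are close copies: up to 45.7% of the 50-base words of a beta gene's own exon recur in another member (PCDHB8), with a median of 13.6%. Levels of single genes are therefore uncertain where reads could be split. PCDHB4 had the most counts and was at 1.83, 1.75, 4.88 and 2.99 CPM with chaetocin, 2.05, 2.4 and 2.47 with F5446, 2.1, 2.75, 3.6 and 2.41 with romidepsin, and 1.87 and 2.46 with DMSO. It was highest in chaetocin replicate 3 and overlapped DMSO in all 3 treatments. PCDHB14 was at 2.09, 1.56, 0.598 and 1.24 CPM with chaetocin, 1.82, 0.59 and 1.83 with F5446, 2.55, 1.85, 1.39 and 1.35 with romidepsin, and 1.34 and 0.724 with DMSO. PCDHB13 was at 1.26, 2.38, 1.49 and 0.311 CPM with chaetocin, 1.82, 1.37 and 0.94 with F5446, 0.94, 2.65, 0.875 and 1.62 with romidepsin, and 1.2 and 1.5 with DMSO. The romidepsin values of PCDHB14 all lay above both DMSO values, while PCDHB13 overlapped DMSO in every treatment. PCDHB12 was at 0.696, 1.66, 1.15 and 1.48 CPM with chaetocin, 1.51, 1.25 and 1.58 with F5446, 0.895, 1.3, 1.13 and 0.974 with romidepsin, and 2.54 and 1.74 with DMSO. PCDHB11 was at 0.522, 0.782, 0.598 and 0.233 CPM with chaetocin, 1.82, 0.59 and 0.495 with F5446, 1.48, 1.45, 0.68 and 0.696 with romidepsin, and 1.15 and 1.5 with DMSO. Every treated library was below both DMSO libraries for PCDHB12. For PCDHB11 this held for all 4 chaetocin libraries and for replicates 3 and 4 of F5446 and of romidepsin, while F5446 replicate 2 was above both and romidepsin replicates 1 and 2 lay between them. PCDHB9 was at 0.869, 0.313, 0.697 and 0.466 CPM with chaetocin, 0.774, 0.553 and 0.445 with F5446, 1.03, 0, 1.39 and 0.742 with romidepsin, and 0.958 and 1.35 with DMSO. This gene shares 17.2% of its words with PCDHB10, its neighbour. PCDHB10 was at 0.522, 0.657, 0.399 and 0.622 CPM with chaetocin, 0.471, 0.517 and 0.841 with F5446, 0.179, 0.0999, 0.842 and 0.696 with romidepsin, and 0.0479 and 0.241 with DMSO. The pair differed in direction: PCDHB9 was below DMSO in every chaetocin and F5446 library, and PCDHB10 was above it in the same libraries. PCDHB2 was at 0.174, 1.03, 0 and 0.544 CPM with chaetocin, 0.37, 1.48 and 0 with F5446, 0.626, 0, 0.194 and 0.464 with romidepsin, and 0.575 and 0.193 with DMSO. PCDHB5 was at 0, 0, 0.797 and 0 CPM with chaetocin, 0.168, 0 and 0 with F5446, 0, 0.15, 0.259 and 0.278 with romidepsin, and 0.958 and 0.193 with DMSO. PCDHB7 was at 0.435, 0.188, 0.548 and 0.194 CPM with chaetocin, 0.303, 0 and 0 with F5446, 0.0447, 0, 0.259 and 0.0464 with romidepsin, and 0.0958 and 0 with DMSO. These last 3 had counts in 10, 7 and 9 of the 13 libraries. PCDHB7 was above both DMSO values in all chaetocin libraries, on 5 to 11 counts each, and PCDHB5 was below them in all F5446 libraries. The 6 beta genes not tested (PCDHB1, PCDHB3, PCDHB6, PCDHB8, PCDHB15 and PCDHB16) had 5 to 29 counts in all libraries together, and at most 9 in a library. With chaetocin, F5446, romidepsin and DMSO, PCDHB15 had 14, 7, 8 and 0 counts and PCDHB16 8, 0, 0 and 6. PCDHB8 had 1, 9, 0 and 0, PCDHB3 5, 0, 2 and 2, and PCDHB6 5, 0, 0 and 0. PCDHB1 had 0, 0, 0 and 8. The groups differ in their number of libraries.

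The gamma genes divide into A-type, B-type and C-type genes by the sequence of their first exons. All 22 had counts and 19 had enough to be tested, all but PCDHGA3, PCDHGC4 and PCDHGC5. Shared words were fewer than in beta, with a median of 6.14% and a highest share of 20.4% (PCDHGB4 and PCDHGB5). PCDHGB2 had the most counts and was at 4.91, 6.22, 7.57 and 4.31 CPM with chaetocin, 5.96, 4.54 and 4.85 with F5446, 4.52, 7.15, 5.54 and 6.4 with romidepsin, and 7.95 and 7.82 with DMSO. All 11 treated libraries were below both DMSO libraries. PCDHGA5 was at 3.56, 3.81, 7.07 and 2.49 CPM with chaetocin, 3.06, 3.65 and 3.07 with F5446, 2.95, 2.9, 2.75 and 3.76 with romidepsin, and 6.7 and 5.26 with DMSO. This A-type gene was below DMSO in every F5446 and romidepsin library, while chaetocin replicate 3 was above DMSO and the other 3 chaetocin libraries below. PCDHGB5 was at 4.52, 4.69, 1.99 and 2.37 CPM with chaetocin, 2.63, 3.28 and 4.8 with F5446, 7.52, 1.7, 2.33 and 6.4 with romidepsin, and 3.16 and 5.46 with DMSO. PCDHGB1 was at 3.52, 3, 5.43 and 3.26 CPM with chaetocin, 2.52, 2.4 and 2.37 with F5446, 1.88, 2.65, 2.46 and 1.86 with romidepsin, and 2.35 and 3.19 with DMSO. Of these B-type genes, PCDHGB5 ran from 1.7 to 7.52 CPM within the romidepsin group alone, and PCDHGB1 was higher in each chaetocin library except replicate 2 than in any other treated library or DMSO. PCDHGA6 was at 2.13, 3.35, 2.84 and 2.68 CPM with chaetocin, 3.63, 1.84 and 2.67 with F5446, 1.12, 2.95, 1.65 and 3.57 with romidepsin, and 2.06 and 5.41 with DMSO. PCDHGA10 was at 3.87, 2.6, 2.94 and 2.02 CPM with chaetocin, 1.72, 1.62 and 1.29 with F5446, 2.24, 2.8, 1.88 and 2.64 with romidepsin, and 2.83 and 4.25 with DMSO. For PCDHGA10 all F5446 and romidepsin libraries were below DMSO, and F5446 was also below all chaetocin libraries. PCDHGA6 overlapped DMSO throughout. PCDHGB3 was at 1.91, 1.5, 1.25 and 2.45 CPM with chaetocin, 2.36, 1.62 and 2.03 with F5446, 2.51, 3.65, 2.53 and 2.18 with romidepsin, and 2.83 and 2.8 with DMSO. PCDHGB6 was at 2.13, 2.75, 0.448 and 1.83 CPM with chaetocin, 1.51, 1.44 and 3.46 with F5446, 1.61, 4.4, 1.46 and 2.18 with romidepsin, and 3.21 and 2.66 with DMSO. The 2 DMSO values of PCDHGB3 were close together and above all chaetocin and F5446 libraries. PCDHGB6 overlapped DMSO in each treatment. PCDHGA9 was at 1.78, 3.22, 1.25 and 2.02 CPM with chaetocin, 1.31, 0.922 and 0.297 with F5446, 2.24, 1.85, 2.43 and 1.16 with romidepsin, and 1.05 and 1.4 with DMSO. PCDHGA7 was at 1.74, 2.41, 0 and 0.894 CPM with chaetocin, 1.68, 1.33 and 2.82 with F5446, 1.07, 1.3, 1.68 and 0.649 with romidepsin, and 0.718 and 2.41 with DMSO. PCDHGA7 had no count in chaetocin replicate 3, and both genes overlapped DMSO. PCDHGA4 was at 0.696, 1.5, 0.598 and 1.28 CPM with chaetocin, 1.11, 1.81 and 1.38 with F5446, 1.66, 1.7, 1.36 and 1.02 with romidepsin, and 0.479 and 2.17 with DMSO. PCDHGB7 was at 1.48, 1.88, 0 and 1.2 CPM with chaetocin, 1.35, 0.959 and 0.841 with F5446, 1.52, 0.55, 0.421 and 0.186 with romidepsin, and 0.192 and 2.08 with DMSO. The 2 DMSO libraries differed widely for these genes and spanned most treated libraries. The other 7 tested gamma genes were PCDHGA11, PCDHGA12, PCDHGA8, PCDHGB4, PCDHGA1, PCDHGC3 and PCDHGA2, with 69 to 277 counts each over all libraries. PCDHGA11 was at 0.956, 1.06, 1.25 and 0.816 CPM with chaetocin, 0.875, 0.886 and 1.73 with F5446, 0.805, 1.1, 0.421 and 1.16 with romidepsin, and 0.575 and 0 with DMSO. Its lowest value was the 0 in DMSO replicate 4. PCDHGC3, the C-type gene found in many tissues, had 79 counts, 44 of them in chaetocin replicate 2 and 15 in romidepsin replicate 2. Of the gamma genes not tested, PCDHGC5 had 21, 4, 7 and 0 counts with chaetocin, F5446, romidepsin and DMSO. In the same order PCDHGC4 had 15, 4, 0 and 2, and PCDHGA3 3, 6, 0 and 0.

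**Figure D3:**
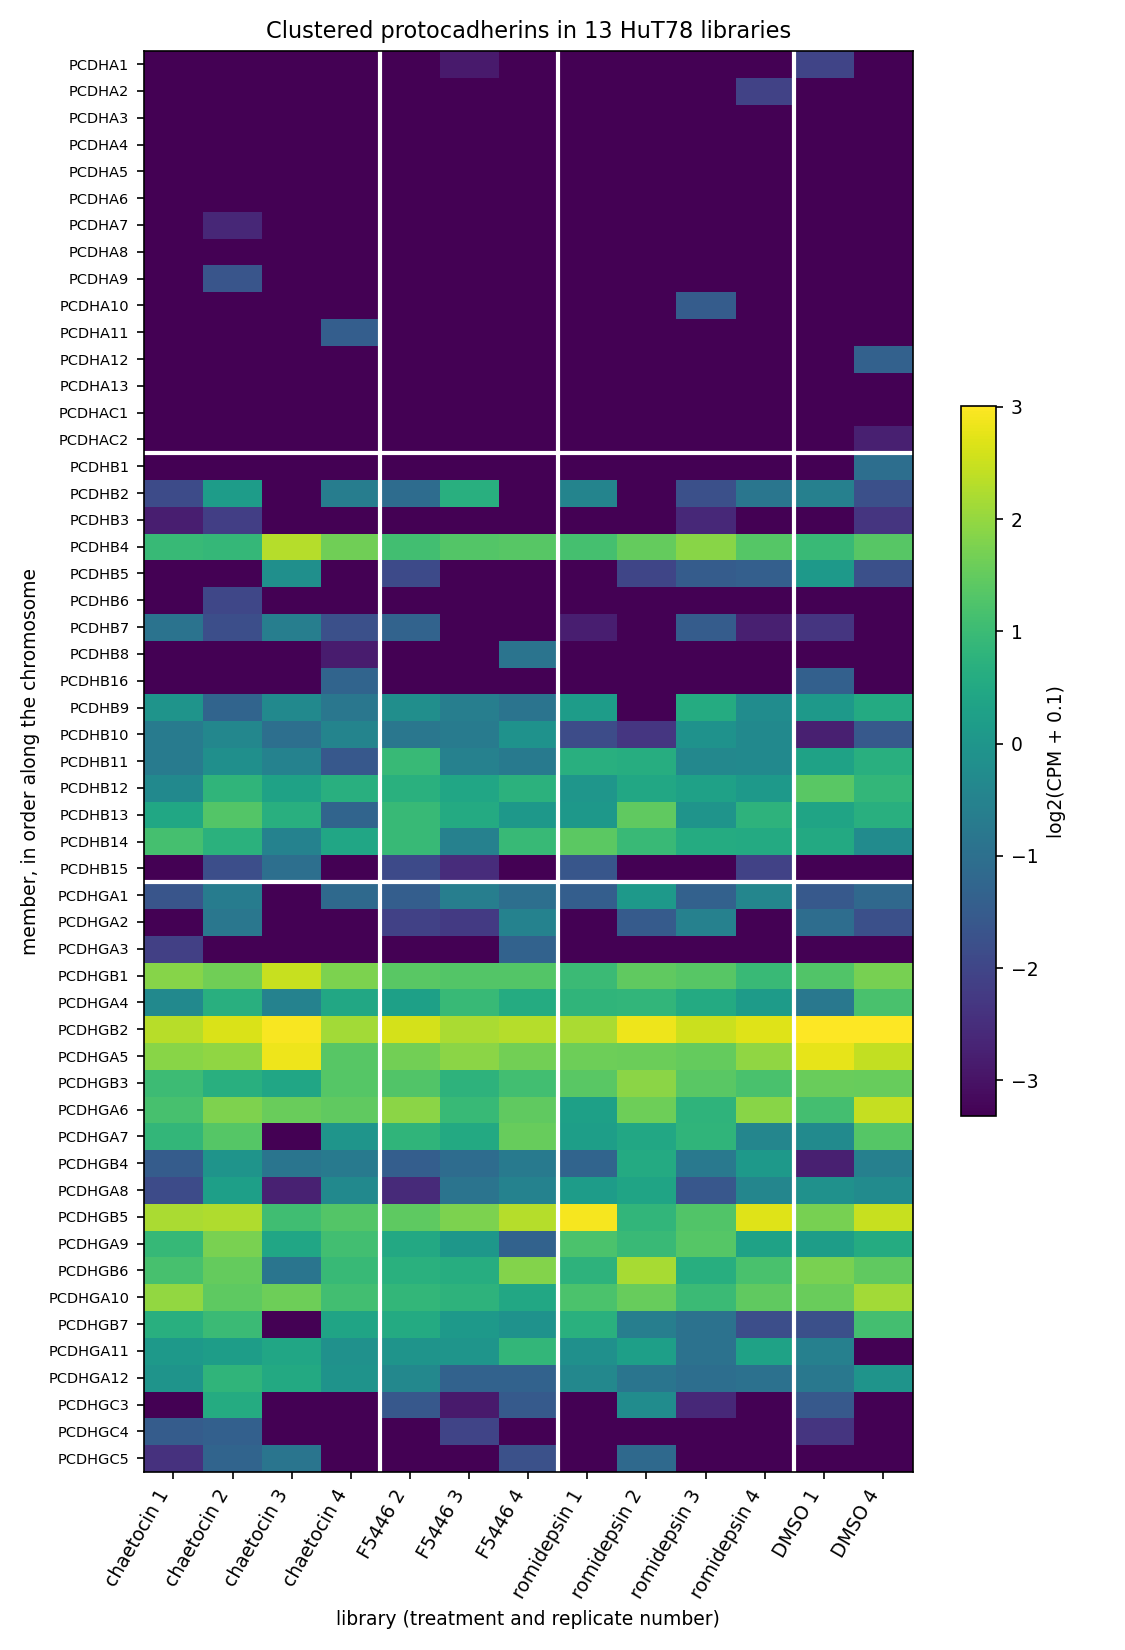
Level of each of the 53 members (rows, in chromosomal order) in each of the 13 libraries (columns, by treatment and replicate number) as log2(CPM + 0.1); white lines part the clusters and the treatments. The alpha rows are empty but for isolated libraries. PCDHB4, PCDHB9 to PCDHB14, PCDHGA1 and the rows from PCDHGB1 to PCDHGA12 carry counts in nearly all libraries.

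The comparison of chaetocin with DMSO asks whether the methyltransferase inhibitor raised the members. None was called by edgeR's quasi-likelihood test at an adjusted p under 0.05 (0 of 29 tested members), and 0% of all 17252 tested genes were called. DESeq2 also called 0 members, with 1 at an unadjusted p under 0.05. It gave no adjusted p for PCDHGA11 and PCDHB11, so these 2 could not be called by it. By edgeR, 0 members were at an unadjusted p under 0.05, where 2.16% of all genes were higher and 1.91% lower. Of the 29, 13 had a log2 fold change above 0 (44.8%, against 51.0% of all genes), and the median was -0.3, against 0.01 over all genes. The smallest p belonged to PCDHGA11 (log2 fold change 1.81, 95% CI -0.35 to 3.96, unadjusted p = 0.0958, edgeR adjusted p = 1). This value turns on the DMSO libraries: it was 0.82 without DMSO replicate 4, and without DMSO replicate 1 the remaining DMSO library was at 0. PCDHB11 had -1.3 (95% CI -2.95 to 0.35) and PCDHGB2 -0.46 (-1.08 to 0.17). Libraries did not overlap with DMSO in 3 members that were higher (PCDHB7, PCDHB10 and PCDHGA11; 10.3% of the 29, against 5.22% of all genes). They did not overlap in 5 that were lower (PCDHB9, PCDHB11, PCDHB12, PCDHGB2 and PCDHGB3; 17.2%, against 6.09%). Among the 3 that were higher, PCDHB7 reached 10 counts only in chaetocin replicates 1 and 3. It thus had enough counts to be tested only through the group in which it was higher, so its place among the 3 is no support for a rise. For 9 members the upper bound of the 95% interval was under a doubling (31%, against 63.3% of all genes). For the other 20 a doubling was within the interval at this depth.

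With F5446 against DMSO, which asks the same of the SUV39H1 inhibitor, 0 of the 29 members were called by edgeR (0% of all genes) and 0 by DESeq2. The 2 members at an unadjusted p under 0.05 were both A-type gamma genes and lower (6.9%, against 0.968% of all genes). PCDHGA10 was at 1.54 ± 0.227 CPM with F5446 (SD, n = 3), against 3.54 ± 1.01 CPM with DMSO (SD, n = 2). The log2 fold change of PCDHGA10 was -1.19 (95% CI -2.13 to -0.26, unadjusted p = 0.0149, edgeR adjusted p = 1). PCDHGA5 had -0.87 (95% CI -1.71 to -0.03, unadjusted p = 0.0422, edgeR adjusted p = 1), and PCDHGB2 -0.62 (-1.28 to 0.04). No member was at an unadjusted p under 0.05 and higher (1.51% of all genes were). Libraries did not overlap in 8 members that were lower (27.6%, against 9.12% of all genes): PCDHB5, PCDHB9, PCDHB12, PCDHGA5, PCDHGA8, PCDHGA10, PCDHGB2 and PCDHGB3. They did not overlap in 2 that were higher, PCDHB10 and PCDHGA11 (6.9%, against 9.44%). The median log2 fold change was -0.18 over the 29 members, 0.06 over the 10 beta and -0.28 over the 19 gamma genes. It was above 0 in 12 members (41.4%, against 51.2% of all genes), and the upper bound was under a doubling in 10 (34.5%, against 62.9%).

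Romidepsin against DMSO asks whether a deacetylase inhibitor raised the clusters. By edgeR 0 of 29 members were called (0% of all genes), and by DESeq2 0. In none of the 3 comparisons with DMSO did edgeR call any gene. The fit thus holds no called response to a treatment against which the members could be set. PCDHGA5 alone was at an unadjusted p under 0.05 and lower (1.00% of all genes were), and 0 were higher (1.82% of all genes were). It was at 3.09 ± 0.452 CPM with romidepsin (SD, n = 4), against 5.98 ± 1.02 CPM with DMSO (SD, n = 2); the log2 fold change was -0.95 (95% CI -1.74 to -0.17, unadjusted p = 0.02, edgeR adjusted p = 1). PCDHB12 had -0.99 (-2.17 to 0.19) and PCDHGA11 1.58 (-0.56 to 3.71). PCDHGA11 was 0.59 without DMSO replicate 4. Libraries did not overlap in 4 members that were lower (PCDHB12, PCDHGA5, PCDHGA10 and PCDHGB2; 13.8%, against 4.98% of all genes). The 1 that was higher was PCDHB14 (3.45%, against 5.34%), with a log2 fold change of 0.78 (-0.62 to 2.19). The median was -0.25 over the 29 members, -0.04 in beta and -0.29 in gamma. It was above 0 in 13 members (44.8%, against 51.0% of all genes), and the upper bound was under a doubling in 8 (27.6%, against 63.1%). All 3 comparisons use the same 2 DMSO libraries, so PCDHB12 and PCDHGB2, which were lower without overlap in each, are not 3 separate observations.

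**Figure D4:**
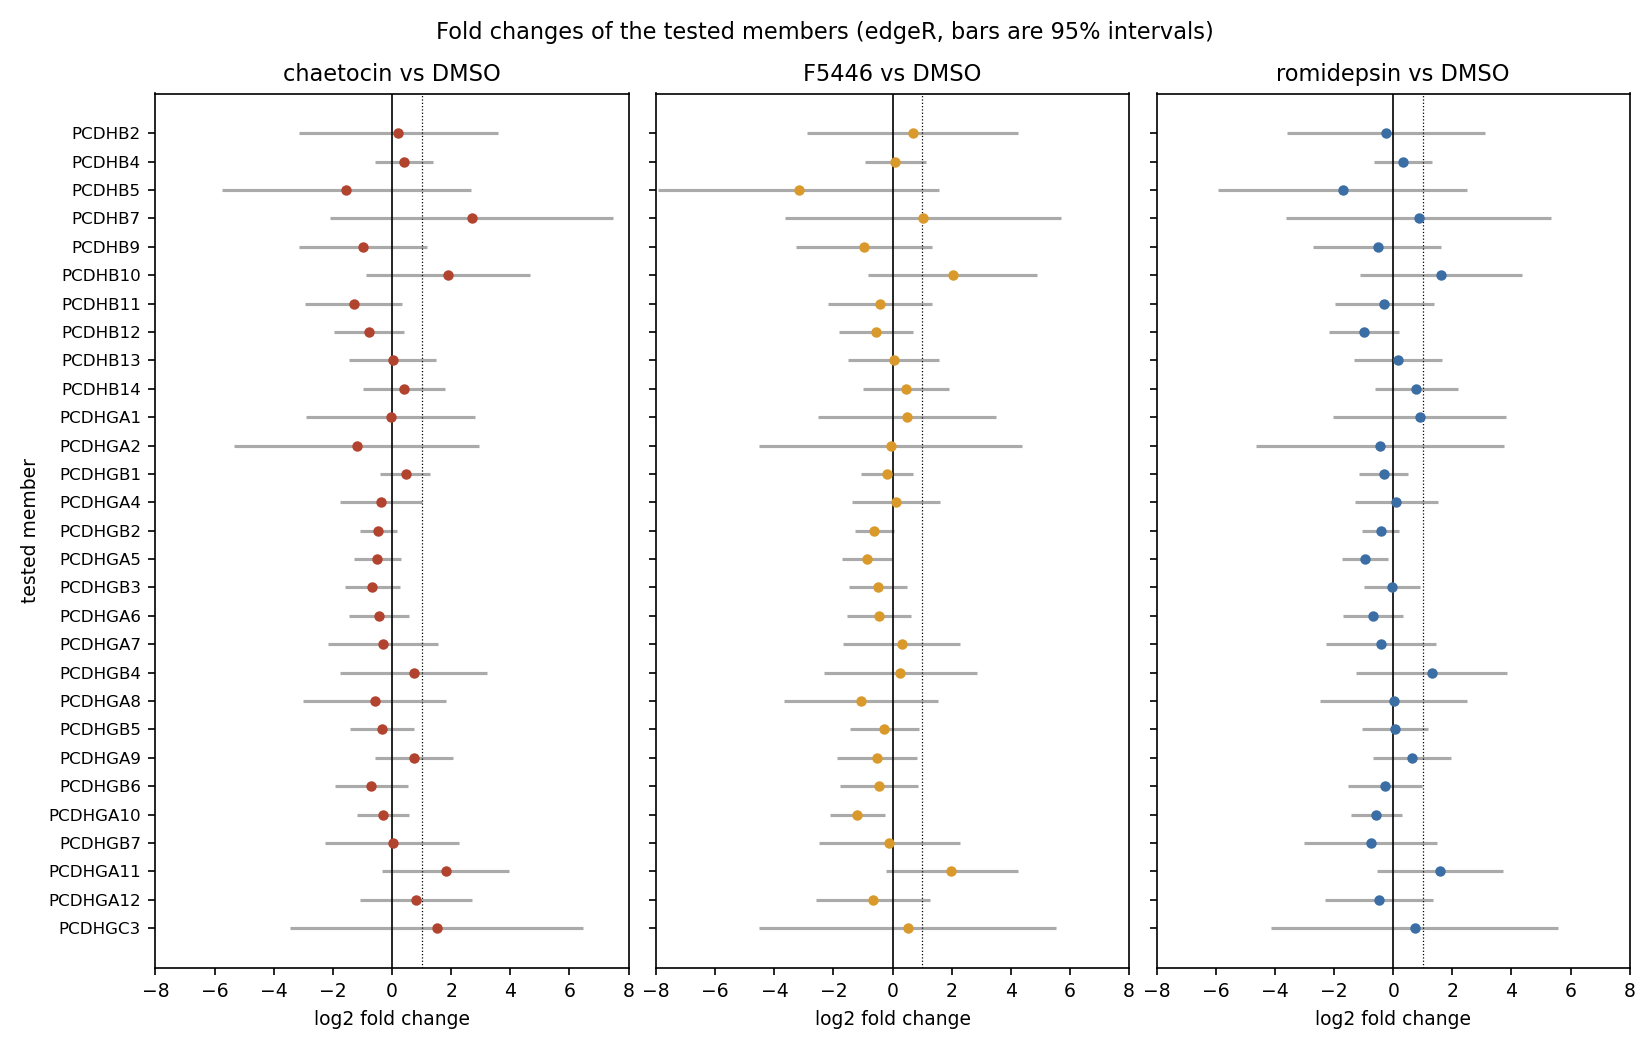
Log2 fold change against DMSO (x axis) of the 29 tested members (y axis, in chromosomal order) with chaetocin, F5446 and romidepsin; points are edgeR estimates, bars 95% intervals, the solid line is no change and the dotted line a doubling. All intervals include 0 with chaetocin; those that do not are PCDHGA5 and PCDHGA10 with F5446 and PCDHGA5 with romidepsin, all below 0 and none called.

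Since their doses and times matched, chaetocin was also set directly against F5446. No member was called by edgeR (0 of 29, and 0% of all genes) or by DESeq2. PCDHGA9 was at 2.07 ± 0.835 CPM with chaetocin (SD, n = 4), against 0.844 ± 0.512 with F5446 (SD, n = 3), with overlapping libraries and a log2 difference of 1.28 (95% CI 0.11 to 2.44, unadjusted p = 0.0332, edgeR adjusted p = 0.999). PCDHGA10 had 0.88 (95% CI 0.07 to 1.69, unadjusted p = 0.0343, edgeR adjusted p = 0.999), and PCDHGA12 1.47 (-0.22 to 3.15). These were the only 2 members at an unadjusted p under 0.05 (PCDHGA9 and PCDHGA10, both higher with chaetocin; 6.9%, against 1.43% of all genes), and 0 were lower (1.97% of all genes were). The difference was above 0 in 14 members (48.3%, against 49.9%), and its upper bound was under a doubling in 8 (27.6%, against 65.7%). PCDHGA10, PCDHGA12 and PCDHGB1 were higher with chaetocin in all libraries (10.3%, against 2.28%), and none was lower in all (0%, against 3.11%). The gamma sums of 36.2 and 31.5 CPM gave a log2 ratio of 0.2, which was 0.35 within replicate numbers 1 and 2 and 0.04 within 3 and 4. The beta ratio was 0.01, with -0.23 and 0.16 within these sets.

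Genes that select or silence the clusters were present in HuT78 and none was called in the comparisons with DMSO. The 14 CTCF and cohesin genes had median log2 fold changes of -0.02, 0.01 and 0.01 with chaetocin, F5446 and romidepsin, and 0 were at an unadjusted p under 0.05. Those with the smallest p were WAPL, the cohesin release factor, at -0.28 with F5446 (95% CI -0.59 to 0.03), and RAD21, a cohesin subunit, at 0.32 with F5446 (-0.04 to 0.68). The 25 silencing genes had medians of 0.02, 0 and 0. TRIM28, a corepressor that recruits SETDB1, was at 435 ± 78.7 CPM with F5446 (SD, n = 3), against 325 ± 41.3 with DMSO (SD, n = 2); the log2 fold change was 0.42 (0.07 to 0.77, edgeR adjusted p = 1). REST, the repressor of neuronal genes, was at 90.5 ± 6.99 CPM with chaetocin (SD, n = 4), against 114 ± 13 with DMSO (-0.33, 95% CI -0.63 to -0.03, edgeR adjusted p = 1). The 4 DNA demethylation genes had medians of 0.02, -0.02 and -0.09, with TET1 at -0.22 (-0.63 to 0.2) and TET3 at -0.15 (-0.53 to 0.22) with romidepsin.

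Around the clusters, 18 neighbouring genes were tested and 0 called, with medians of 0.09, 0.06 and 0.02 with chaetocin, F5446 and romidepsin. ZMAT2, a splicing factor gene, was at 55.7 ± 2.89 CPM with chaetocin (SD, n = 4), against 44.5 ± 6.66 with DMSO (SD, n = 2); the log2 fold change was 0.32 (0.01 to 0.64, edgeR adjusted p = 1). SLC35A4 had 0.37 (-0.06 to 0.79). Of 18 partners in protocadherin signalling 0 were called, with 3 lower at an unadjusted p under 0.05 with chaetocin (1.91% of all genes were). ADAM10, the protease that sheds protocadherin ectodomains, was at 119 ± 9.01 CPM with chaetocin (SD, n = 4), against 164 ± 16.6 with DMSO (SD, n = 2). ADAM10 had a log2 fold change of -0.46 (-0.74 to -0.19, edgeR adjusted p = 1). PTK2, the focal adhesion kinase gene that clustered protocadherins inhibit in neurons, had -1.12 (-1.87 to -0.37, edgeR adjusted p = 1) at 2.58 ± 0.425 CPM with chaetocin and 5.63 ± 1.67 with DMSO. Of 23 cadherin-family genes outside the clusters 9 were tested and 0 called. FAT4, an atypical cadherin of the Hippo pathway, was at 0.903 ± 0.526 CPM with chaetocin (SD, n = 4), against 3.64 ± 2.03 with DMSO (SD, n = 2); the log2 fold change was -2.01 (-3.02 to -1, edgeR adjusted p = 0.636). DCHS2 had -0.86 (-1.66 to -0.07, edgeR adjusted p = 1).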

How the data were processed

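RNA from 13 libraries of the HuT78 cell line was sequenced. The deposited values are raw counts per gene, made by the authors with bcl2fastq 2.20.0.422, cutadapt 1.8.1 and HTSeq 0.6.1 on hg19, per the submitters' processing notes. For the aligner, annotation release and strand setting nothing is stated, so reads of overlapping or antisense genes cannot be told apart. Groups came from the sample titles, also where the treatment labels of F5446 replicates 3 and 4 give other code names. Counts were fitted with edgeR 4.0.16 (R 4.3.3, limma 3.58.1): filterByExpr, TMM scaling, robust quasi-likelihood, group as the only term, all 13 libraries, two-sided tests, Benjamini-Hochberg adjustment over the 17252 genes tested, threshold 0.05. The procedure was tested on simulated data, with log2 folds of 2 and 3 in genes of higher level than nearly all members. That simulation says nothing of the power to find a doubling in these members. CPM is the count relative to the TMM-scaled library total. Cluster sums are descriptive. Alternatives were DESeq2 1.42.0, other scaling, no filter, a replicate block, a term for replicate numbers and leaving out each library.

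The members and gene lists were chosen with earlier results of these data known. Named with every library were members passing the filter, up to 12 a cluster by summed counts, or the 3 with the most counts where fewer than 3 passed. Also named were the 3 members with the smallest p in each comparison and the 2 genes of each pathway list with the smallest p against DMSO. Lengths and shared 50-base words came from GENCODE 29 principal transcripts and promoters from RefSeq, both GRCh38; no position was carried over to the hg19 counts.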

Additional observations from a re-analysis of the deposited data

Results flagged for a closer look

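In 4 of the 56 sets of values examined, 1 library of a group of 4 had counts while the other 3 were at 0, which marks the library as far from the rest whatever its level. The usual chance rate of about 1 in 20 does not apply to such values. Of all genes with 4 to 8 counts in the table, 70.7% had them in 1 library. PCDHA9 was at 0.219 CPM in chaetocin replicate 2, and PCDHA11 at 0.272 CPM in chaetocin replicate 4. PCDHA10 was at 0.259 CPM in romidepsin replicate 3. PCDHB5 was at 0.797 CPM in chaetocin replicate 3, the library that stood apart on the first principal component. Mitochondrially encoded genes took 15.9% of its counts, and their part in the PCDHB5 value was not tested. The sets examined left out some members. Of those, PCDHGC3 and PCDHGA2 showed the same pattern with chaetocin, with 44 and 15 counts in replicate 2 and 0 in the other chaetocin libraries. On fewer counts, so did PCDHB6 and PCDHA7 (replicate 2), PCDHB8 and PCDHB16 (replicate 4) and PCDHGA3 (replicate 1). With romidepsin, PCDHGC5 (replicate 2), PCDHB3 (replicate 3) and PCDHA2 (replicate 4) had counts in 1 library only.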

How the results depend on the processing

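No member was called under any alternative run. Some beta and gamma log2 ratios changed sign within replicate numbers 1 and 2, with the values given below. For chaetocin against DMSO, DESeq2 gave no adjusted p for PCDHGA11 and PCDHB11, so it could not call them. The number of genes called over the whole table, 0 in all 4 comparisons, moved. For chaetocin against DMSO it was 10 with DESeq2, 9 with no filter, 10 with the replicate block, 7 with a term that parts replicate numbers 1 and 2 from 3 and 4, and 0 to 2 leaving out 1 library (1 without chaetocin replicate 4, 2 without DMSO replicate 4). For F5446 against DMSO it was 1 with DESeq2. For romidepsin against DMSO it was 1 with DESeq2, 5 with no filter, 1 with the replicate block and 1 with the term for replicate numbers. For chaetocin against F5446 it was 2, 9, 11 and 5 under these same 4 settings. The cause was not tested. Replicate numbers share no stated origin, so they were not taken as pairs. Deviations of same-numbered libraries correlated at 0.04 to 0.22, all above 0. Differently numbered libraries were not correlated for comparison, so these values cannot decide whether the numbers pair libraries.

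The beta log2 ratio was -0.34 for chaetocin against DMSO with the replicate block, 0.03 for F5446 against DMSO and -0.23 for chaetocin against F5446 within replicate numbers 1 and 2, and -0.21 for romidepsin against DMSO without PCDHB4. The gamma ratio to DMSO within numbers 1 and 2 was 0.13 with chaetocin, -0.21 with F5446 and 0.02 with romidepsin, and within 3 and 4 it was -0.55 with chaetocin and with romidepsin. Leaving out 1 library gave -0.6 to -0.21 for F5446. The alpha ratio to DMSO ran from -1.41 to -0.05 with chaetocin, -4.78 to -3.55 with F5446 and -2.38 to -0.53 with romidepsin when 1 library was left out. The block gave no value for alpha sums or for F5446 against DMSO, which share 1 number. With 2 DMSO libraries and few counts, a doubling lay within the interval for most members.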

Other observations

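Pseudogenes of the clusters were outside the rule. PCDHGB8P had 196 counts in all libraries, 51 of them in chaetocin replicate 2, and PCDHB18P, PCDHB19P and PCDHB17P had 36, 26 and 5. PCDHA14 had none. Among protocadherins outside the clusters, PCDH9 had 4419 counts and was at 13, 19.4, 7.97 and 11.1 CPM with chaetocin, 14.5, 12.5 and 9.94 with F5446, 12.3, 22.7, 14.7 and 14 with romidepsin, and 16.6 and 12.1 with DMSO. Every treated group overlapped DMSO. PCDH10 had 46 counts, 17 of them in DMSO replicate 4.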
